A study of Mus musculus with 59 samples.

Results

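The effect of an altered copy of Ank2 was examined in young mice raised on fluoxetine, in 19 of the 59 libraries of the series: every library labelled HT and Fluoxetine (10) and every library labelled WT and Fluoxetine (9). HT mice were heterozygous for Ank2 and WT mice were wild type, all on the C57BL/6J strain. HT fluoxetine comprised 5 female and 5 male libraries, and WT fluoxetine 5 female and 4 male libraries. All 19 came from prefrontal cortex at postnatal day 25, after 3 weeks (days 3 to 24) in which fluoxetine reached the pups through the mother's milk. HT and WT mice given vehicle (20 libraries) or lithium (20 libraries) in the same way are set beside them. The kind of Ank2 allele, the dams and the litters are not given in the labels, and nothing there says that replicates are separate litters, so p-values measure the spread between these libraries.

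Ank2 codes for ankyrin-B, a large adaptor that fastens ion exchangers, channels and cell adhesion molecules to the spectrin cytoskeleton and takes part in the transport of vesicles along axons. In neurons a giant splice form of the protein lies along the axon, and loss-of-function variants of the human gene are associated with autism. Fluoxetine blocks the serotonin transporter, which clears serotonin released from axons of the raphe nuclei, and the cortex at this age is still refining its synapses and adding myelin.

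Messenger RNA was sequenced from all libraries, and the deposited values are estimated gene counts divided by a normalization factor. In the 19 fluoxetine libraries they summed to 31.4 to 33.8 M and the estimated depth was 25.9 to 36.5 M reads, the range also found over all 59. Slc17a7, the vesicular glutamate transporter of cortical excitatory neurons, was at 38937 or more in HT and 36745 or more in WT libraries. 3 libraries stood apart. HT female replicate 2 had 72657 of Ttr, the transthyretin of the choroid plexus, where the other 18 had 126 or less, and 4900.0 of Prox1, a dentate gyrus transcription factor, where WT libraries had 304 to 445. In HT female replicate 4, Xist, which silences an X chromosome in female cells, was at 9791, with 29919.7 to 40609 in the other 9 female libraries. WT male replicate 1 had 1306 of the activity-induced gene Fos, where no HT library had more than 425 and no other WT library more than 612.

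The targeted gene separated the groups completely. Ank2 (ENSMUSG00000032826, GRCm38 chromosome 3, 126921612 to 127499350) had normalized values of 22308, 17431, 22813, 22575 and 20481 in HT females, against 34139, 29585, 32259, 32159 and 33452 in WT females. HT males had 21412, 22475, 22702, 20980.3 and 22760.2, against 30655, 31518, 33204 and 35821 in WT males. The highest of the 10 HT values lay below the lowest of the 9 WT values. Averaged over the sexes, Ank2 fell to 0.662-fold (log2 change -0.59, SE 0.04, adjusted p = 2.5e-16 by limma's moderated test), and the difference of group means was the most extreme of all 92378 divisions of the 19 libraries (exact permutation test, two-sided p = 2.16502e-05, the smallest it can give). It fell by 0.62 on the log2 scale in females (SE 0.05) and by 0.57 in males (SE 0.06). The log2 change was -0.54 under vehicle and -0.46 under lithium. The tests of the differences between these effects did not pass: the difference was -0.05 between females and males (SE 0.08, adjusted p = 0.88), -0.06 between fluoxetine and vehicle (SE 0.06, adjusted p = 0.84) and -0.14 between fluoxetine and lithium (SE 0.06, adjusted p = 0.26), all by limma.

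**Figure D1:**
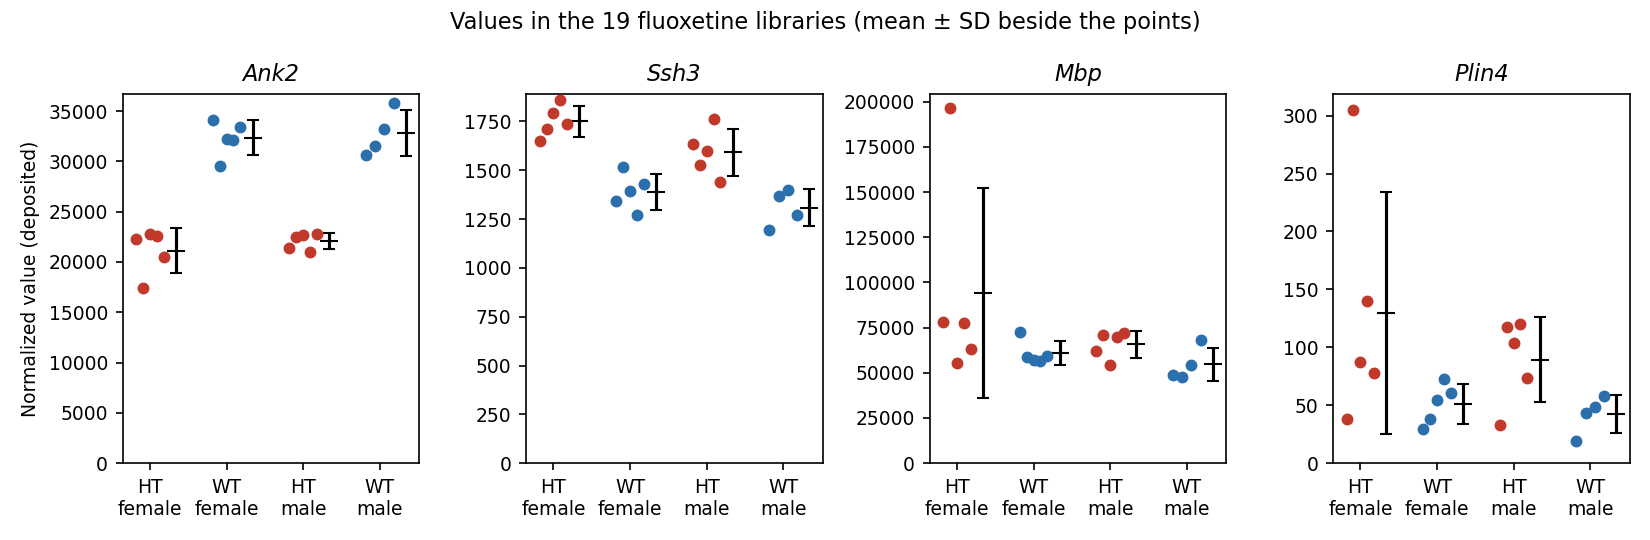
Deposited normalized values of Ank2, Ssh3, Mbp and Plin4 in the 19 fluoxetine libraries, by genotype and sex, each point a library, with the mean and SD beside the points and the vertical axes starting at 0. All HT points of Ank2 lie below all WT points, 9 of the 10 HT points of Ssh3 lie above all WT points, and the highest Mbp and Plin4 points are those of HT female replicate 2.

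Among 16919 genes with a mean of at least 10, only Ank2 and Ssh3 had an adjusted p under 0.05, called passing from here on, in the comparison of HT with WT averaged over the sexes (0.0118% of the genes, 1 in each direction, Benjamini-Hochberg adjustment over all genes). A further 122 genes had adjusted p-values between 0.05 and 0.1, and 2659 genes (15.7%) had an unadjusted p under 0.05, of which 1302 were higher and 1357 lower in HT. These counts use a spread shared by all 59 libraries. With the 19 fluoxetine libraries fitted alone, 5 genes passed and 1689 had an unadjusted p under 0.05. The typical change was small: its median size over all genes was 0.073 on the log2 scale, and 86 genes differed by more than 2-fold. Under vehicle, 1 gene (0.00591%) passed and 578 (3.42%) had an unadjusted p under 0.05, while under lithium 93 (0.55%) passed and 2759 (16.3%) had an unadjusted p under 0.05.

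Ssh3, a slingshot phosphatase that activates the actin-severing protein cofilin, was the gene that rose. Its values were 1648, 1709, 1795, 1860.1 and 1739.5 in HT females, against 1343, 1517, 1396, 1271 and 1428 in WT females, and 1633, 1525, 1599.9, 1763 and 1442 in HT males, against 1194, 1371, 1399 and 1274 in WT males. In each sex every HT library lay above every WT library, as for 329 genes in females (1.94%, in either direction) and 271 in males (1.6%), and over both sexes 9 of 10 did. The rise was 1.24-fold (log2 change 0.31, SE 0.06, adjusted p = 0.017 by limma), with a log2 change of 0.05 under vehicle and 0.05 under lithium. The difference from vehicle was 0.26 (SE 0.08, unadjusted p = 0.0024, adjusted p = 0.53) and did not pass. Ssh3 no longer passed when HT female replicate 4, HT male replicate 4, WT female replicate 1, WT female replicate 4 or WT male replicate 1 was left out (adjusted p = 0.063, 0.082, 0.051, 0.066 and 0.14 in that order), while its log2 change stayed between 0.29 and 0.32 over all single omissions.

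Genes with the next smallest p among those with a mean of at least 50 did not pass (adjusted p = 0.068 to 0.072 by limma) and differed by modest amounts. Among those higher in HT, Shisa7, an auxiliary subunit of GABA-A receptors, was at 6708 to 8137 in HT libraries (median 7093), against 5693 to 6879 in WT libraries (median 6342), a log2 change of 0.18. Pitpnm2, a membrane-associated phosphatidylinositol transfer protein, was at 9454 to 11359.7 in HT libraries (median 10285), against 6777 to 9736 in WT libraries (median 9150.0), a log2 change of 0.23. For Shisa7 9 of 10 HT libraries exceeded every WT library, and for Pitpnm2 8 of 10 did. Pnpla7, a lysophospholipase, was at 328 to 630.2 in HT libraries (median 418), against 258 to 409 in WT libraries (median 312), a log2 change of 0.44. Under vehicle its change had the other sign (-0.17), and under lithium it was 0.02. Ybx2, a Y-box RNA-binding protein best known from germ cells, was at 92.8 to 132 in HT libraries (median 113), against 49.1 to 111 in WT libraries (median 80.9), a log2 change of 0.49. 7 of 10 HT libraries exceeded every WT library for Ybx2, and 6 of 10 HT libraries exceeded every WT library for Pnpla7.

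Map7, a microtubule protein that recruits kinesin-1, was at 2428 to 3487 in HT libraries (median 2755), against 2065 to 2750.0 in WT libraries (median 2351), a log2 change of 0.24 with 0.09 under vehicle and 0.11 under lithium. Josd2, a deubiquitinase, was at 945 to 1583 in HT libraries (median 1030.2), against 744 to 968 in WT libraries (median 914), a log2 change of 0.26 that was 0.34 in females and 0.19 in males. The groups overlapped in both genes: 5 of 10 HT libraries exceeded every WT library for Map7, and 9 of 10 HT libraries exceeded every WT library for Josd2. Slc16a11, of the monocarboxylate transporter family, was at 294 to 381 in HT libraries (median 323), against 228 to 359 in WT libraries (median 272), a log2 change of 0.26. Nkain1, whose product interacts with the sodium-potassium pump, was at 422 to 663 in HT libraries (median 492), against 338 to 525 in WT libraries (median 423), a log2 change of 0.27. Their changes were 0.04 (Slc16a11) and 0.06 (Nkain1) under vehicle, and 0.13 and 0.01 under lithium. Wbp1l, a membrane protein with WW-binding motifs, was at 1358 to 1699 in HT libraries (median 1485), against 1203 to 1407 in WT libraries (median 1333), a log2 change of 0.16, and 8 of 10 HT libraries exceeded every WT library.

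Among those lower in HT, Thbs2, a thrombospondin that astrocytes secrete, was at 207 to 377 in HT libraries (median 338), against 356 to 586 in WT libraries (median 425), a log2 change of -0.43. Chmp2b, a subunit of the ESCRT-III complex that closes multivesicular bodies, was at 1405 to 1672 in HT libraries (median 1557), against 1643 to 1801 in WT libraries (median 1744), a log2 change of -0.16, and 9 of 10 HT libraries lay below every WT library. Ube3a, the ubiquitin ligase lost in Angelman syndrome, was at 4168 to 5155 in HT libraries (median 4767), against 4779 to 5786 in WT libraries (median 5329.5), a log2 change of -0.19. An antisense transcript overlaps Ube3a, and whether strand was used in counting is not given in the sources used here. 5 of 10 HT libraries lay below every WT library for Ube3a, and its change was 0.07 under vehicle and 0.09 under lithium.

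Uprt, related to the enzyme that salvages uracil in microbes, was at 160.2 to 244 in HT libraries (median 202), against 207 to 319 in WT libraries (median 247), a log2 change of -0.32. Hnrnpa3, an RNA-binding protein that packages nuclear transcripts, was at 9656 to 12159 in HT libraries (median 10402), against 9477 to 13345 in WT libraries (median 11982), a log2 change of -0.19. The groups overlapped in both: 7 of 10 HT libraries lay below every WT library for Uprt, and 0 of 10 HT libraries lay below every WT library for Hnrnpa3. Ddx6, a helicase of RNA granules, was at 5441 to 6499.6 in HT libraries (median 6299), against 6436 to 7409 in WT libraries (median 6754), a log2 change of -0.14. Lypla1, an enzyme that removes palmitate from proteins, was at 839 to 1097 in HT libraries (median 977), against 1034 to 1215 in WT libraries (median 1105), a log2 change of -0.20. Ddx6 had a change of 0.05 under vehicle and Lypla1 of -0.05. Yipf4, a protein of the Golgi, was at 988 to 1208 in HT libraries (median 1145), against 1069.8 to 1519 in WT libraries (median 1242) and Fundc2, of the outer mitochondrial membrane, at 1012 to 1274 in HT libraries (median 1103), against 1159.6 to 1321 in WT libraries (median 1259), with log2 changes of -0.20 and -0.17. Of the 20 genes named here, Ank2 and Ssh3 included, 13 had the same sign under vehicle and 15 under lithium. Over all genes tested, the shares with the same sign were 54.6% and 52.4%. The 2 groups did not overlap for 2 genes (0.0118%): Ank2, and Tmem273, a gene of low level noticed for this after its values were seen. Tmem273 was at 14.8 to 28.1 in HT libraries (median 19.3), against 7.42 to 13.1 in WT libraries (median 8.81), with a log2 change of 1.01 (SE 0.24) and an adjusted p of 0.072 by limma.

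**Figure D2:**
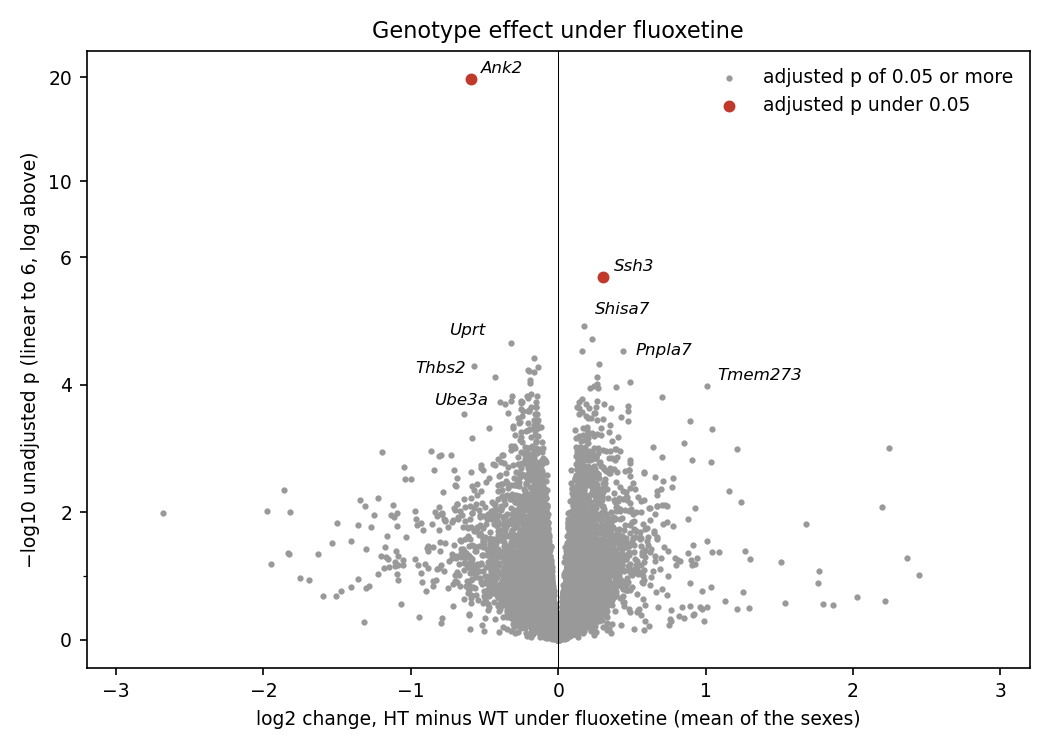
Log2 change (HT minus WT under fluoxetine, mean of the sexes, horizontal) and −log10 of the unadjusted p (vertical, linear to 6 and logarithmic above) of 16919 genes. The 2 red points are the genes with an adjusted p under 0.05, Ank2 at a log2 change of -0.59 and Ssh3 at 0.31, and the cloud of grey points is close to symmetric around 0.

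Genes that work with ankyrin-B were then followed as lists. In the ankyrin and spectrin list, which also holds axon initial segment genes and has 25 members, Ank2 alone passed, and the median log2 change was 0.03, beside -0.00 for all genes tested. The paralogs Ank1 and Ank3 had log2 changes of 0.09 and 0.03, with unadjusted p of 0.34 and 0.45. Sptbn1 and Sptan1, the main spectrin subunits of axons, had 0.01 and 0.04. At an unadjusted p under 0.05, 3 of the 25 were higher, where 7.7% of all genes were. Among them were Trim46, which bundles microtubules at the axon initial segment (0.12), and the spectrin Sptbn4 (0.12, 0.06 without WT male replicate 1). Besides Ank2, Epb41l3, a protein 4.1 family member, was lower at that threshold (-0.13). The list median was 0.00 under vehicle and 0.08 under lithium. Under lithium 3 of the 25 passed as higher and 1 as lower, beside 0.55% of all genes in either direction.

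None of 31 ankyrin-B partners passed, and 11 of the 31 were higher in HT (median -0.03). Slc8a1, the sodium-calcium exchanger, was at 8882 to 12989.9 in HT libraries (median 11012), against 9941 to 13785 in WT libraries (median 12119), a log2 change of -0.16 (unadjusted p = 0.022, adjusted p = 0.24 by limma), and the groups overlapped. Rabgap1l, which ankyrin-B recruits to endosomes, had -0.18 (-0.09 without HT female replicate 1), Dmd, the dystrophin gene, -0.09, the microtubule protein Map1b -0.13 and N-cadherin, Cdh2, -0.07, and the inositol trisphosphate receptor Itpr2 was the member with the smallest p among those higher in HT (0.17). Among the 44 tested of 53 other protein-coding genes within 5 Mb of Ank2, none passed and 25 were higher (median 0.04). Gclm, a subunit of the enzyme that starts glutathione synthesis, had a log2 change of 0.13 and Papss1, which makes the sulfate donor, 0.07.

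Myelin genes were higher in HT without exception, although none passed. All 29 myelin and oligodendrocyte genes had a log2 change above 0 (median 0.30), where 49.4% of all genes did, and 15 of the 29 had an unadjusted p under 0.05 and a higher value in HT, where 7.7% of all genes did. Mbp, a main protein of compact myelin, was at 54581 to 196582 in HT libraries (median 70248), against 47920.2 to 72804 in WT libraries (median 57327), a log2 change of 0.37. The highest value was that of HT female replicate 2. The next highest HT value was 77915, and 7 of 10 HT libraries lay within the WT range. Olig1 and Olig2, transcription factors of the lineage, had log2 changes of 0.30 and 0.31, Pllp, a myelin membrane protein, 0.38, and Mobp and Cnp, both of the myelin sheath, 0.42 and 0.33. Summed over the list, the level was 160030.0 to 531175 in HT libraries (median 199632), against 137899 to 212967 in WT libraries (median 166642). Without HT female replicate 2, 28 of 29 genes were still higher, the median was 0.15 and 3 had an unadjusted p under 0.05, and the changes of Mbp, Mobp and Cnp were 0.22, 0.26 and 0.18. The median was 0.38 in females, 0.12 without HT female replicate 2, and 0.20 in males, so that the order of the sexes turned with that library. It was 0.14 under vehicle and 0.21 under lithium. In bulk tissue, more cells of a type and more RNA per cell cannot be told apart.

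Other glial lists leaned the same way by less under fluoxetine, again with no member past the adjusted threshold. Over all genes tested, 49.4% were higher. 18 of 21 astrocyte genes were higher (median 0.10), 7 of them at an unadjusted p under 0.05, where 7.7% of all genes were higher at that threshold. Fgfr3, a fibroblast growth factor receptor, was at 2999 to 5150.1 in HT libraries (median 3575), against 1971 to 3491 in WT libraries (median 3279). 5 of 10 HT libraries exceeded every WT library for Fgfr3, and the glycolytic enzyme Aldoc had a log2 change of 0.16 beside 0.29 for Fgfr3. In microglia 18 of 22 genes were higher (median 0.09, 0.06 without HT male replicate 4). Selplg, a selectin ligand, had 0.24 and the complement gene C1qb 0.13, while Sall1, a microglial identity factor, was lower (-0.37, unadjusted p = 0.045, and -0.20 without WT male replicate 1). 8 of 10 oligodendrocyte precursor genes were higher (median 0.12), among them the receptor Pdgfra with 0.25. The medians of astrocyte, microglia and oligodendrocyte precursor genes were 0.02, 0.05 and 0.08 under vehicle. Under lithium they had the other sign (-0.04, -0.02 and -0.03). Endothelial and pericyte genes had a median of 0.02, with the glucose transporter Slc2a1 at 0.27, blood cell genes 0.14 and fibroblast and meningeal genes -0.10, of which 1 of 15 was higher. Over single omissions the blood cell median ran from 0.07 (without HT female replicate 4) to 0.22 (without WT male replicate 1), and that of fibroblast and meningeal genes from -0.13 to -0.06 (without WT female replicate 5). The blood cell median was 0.33 under vehicle and -0.24 under lithium, and that of fibroblast and meningeal genes -0.01 and -0.14.

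**Figure D3:**
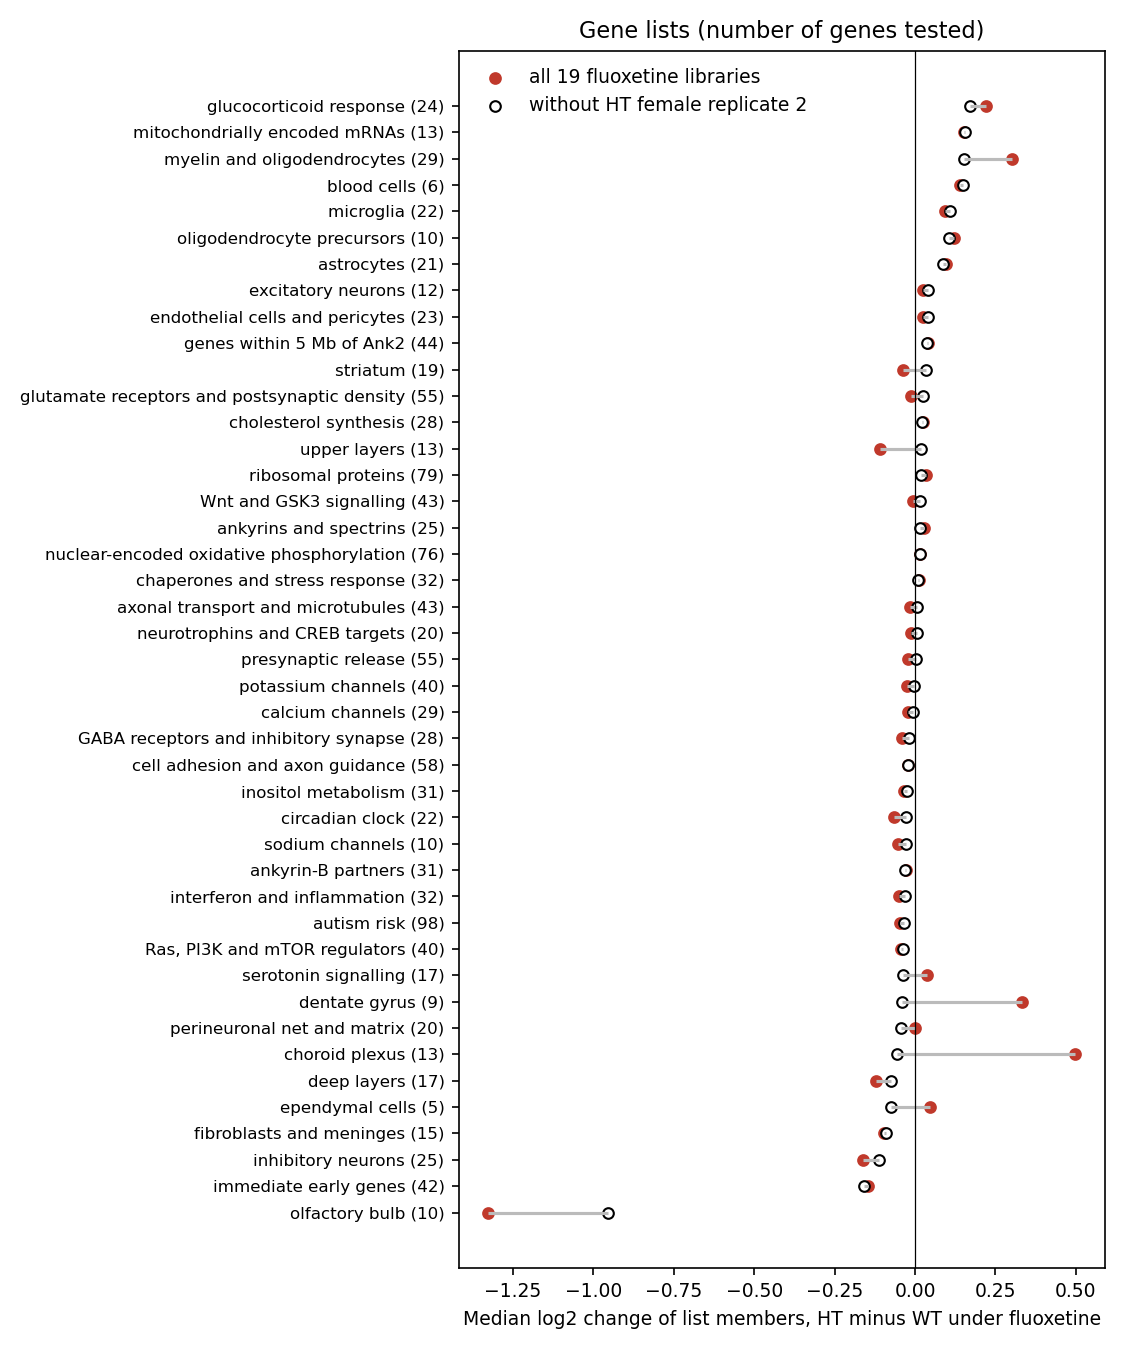
Median log2 change (HT minus WT under fluoxetine, mean of the sexes) of 43 gene lists, with the number of genes tested in brackets, from all 19 libraries (filled) and without HT female replicate 2 (open). Choroid plexus, dentate gyrus and myelin lists stand at 0.50, 0.33 and 0.30 with that library and at -0.06, -0.04 and 0.15 without it, and the olfactory bulb list is the lowest with or without it.

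Markers of neighbouring regions differed between libraries. Choroid plexus genes had a median log2 change of 0.50 and dentate gyrus genes 0.33, and without HT female replicate 2 these were -0.06 and -0.04. The dentate gyrus median was 0.16 without WT male replicate 1. The summed choroid plexus level was 121590.0 in HT female replicate 2, with 7312 to 8693 in the other 9 HT libraries, against 5564 to 8867 in WT libraries. Olfactory bulb genes were lower in HT in all 10 of 10 tested (median -1.33), 7 of them at an unadjusted p under 0.05, where 8.02% of all genes were lower at that threshold, and the median was -0.54 under vehicle and -1.18 under lithium. Th, the rate-limiting enzyme of dopamine synthesis and a marker of bulb interneurons, was at 17.1 to 861 in HT libraries (median 227), against 82.6 to 1581 in WT libraries (median 566). S100a5, a calcium-binding protein of the olfactory system, was at 0 to 53.6 in HT libraries (median 7.74), against 0 to 338 in WT libraries (median 53.3), and listed at 0 in libraries of both genotypes. The groups overlapped widely in both genes. The summed olfactory bulb level was 1901 to 11984 in HT libraries (median 4228), against 2099 to 22553 in WT libraries (median 8218), and without HT female replicate 2 and WT male replicate 1 the median was -0.66, with 0 of 10 at an unadjusted p under 0.05.

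**Figure D4:**
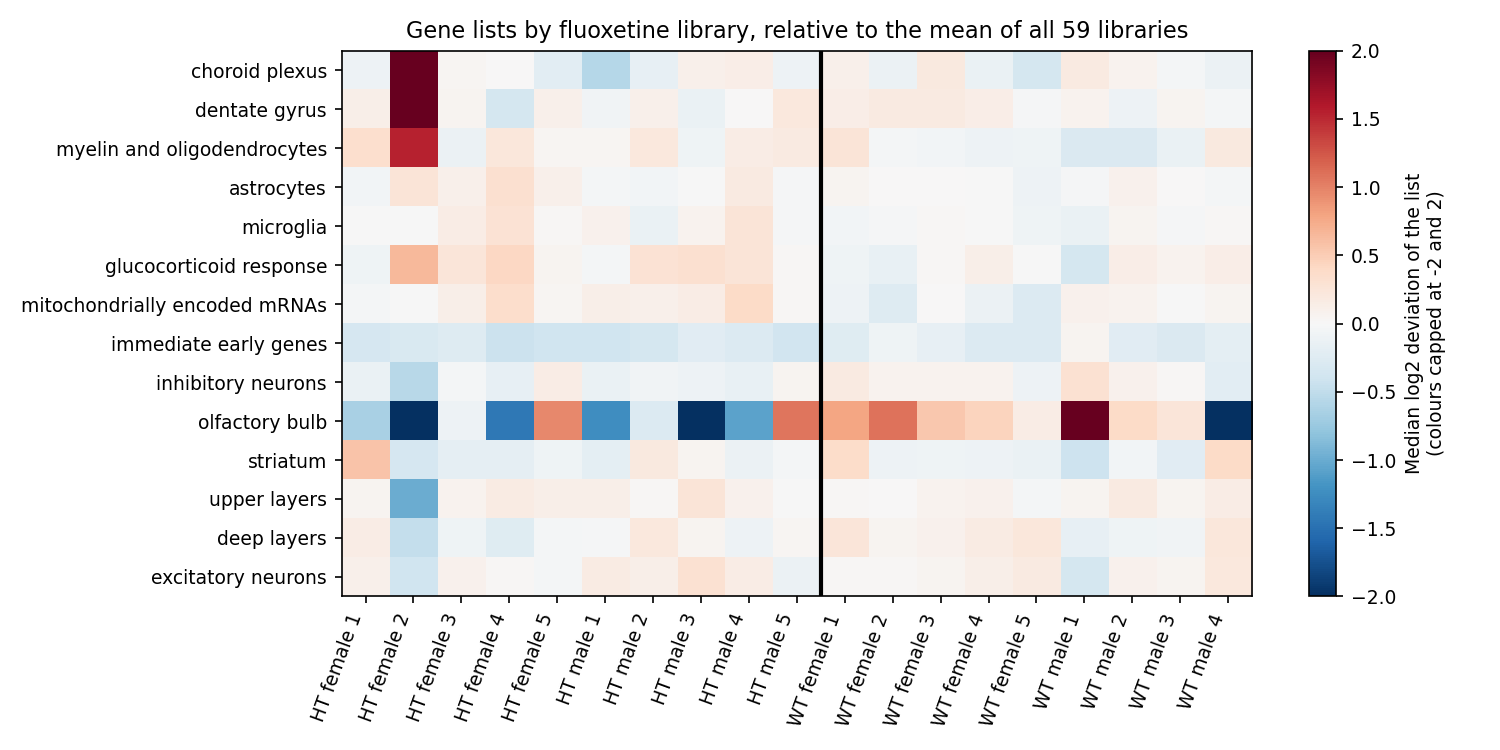
Median log2 deviation of the members of 14 gene lists from their mean over all 59 libraries (colour, capped at -2 and 2) in the 10 HT (left) and 9 WT (right) fluoxetine libraries. HT female replicate 2 is highest for choroid plexus, dentate gyrus and myelin genes and lowest for upper layer genes, and olfactory bulb genes run from -3.00 to 1.08 in HT and from -2.37 to 2.11 in WT.

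Inhibitory neuron genes, of which Sp8 is also in the olfactory bulb list, leaned the same way. 9 of 25 were lower at an unadjusted p under 0.05 and 3 were higher, with a median of -0.16 (-0.11 without HT female replicate 2). Of all genes, 8.02% were lower and 7.7% higher at that threshold. Gad1, which makes GABA, was at 7135 to 13091 in HT libraries (median 9133), against 8123 to 20237 in WT libraries (median 12245), a log2 change of -0.39, with -0.19 for Gad2. Transcription factors of developing interneurons had log2 changes of -0.79 for Dlx1, -0.66 for Dlx2, -0.68 for Dlx5 and -1.04 for Sp8. The higher members were the somatostatin genes Sst (0.20) and Cort (0.26) and Prox1 (0.48, 0.13 without HT female replicate 2). Pvalb, Vip and Lamp5, which mark the main cortical interneuron classes, had 0.02, -0.01 and -0.02. With HT female replicate 2 and WT male replicate 1 left out, 1 member was lower and 2 were higher at an unadjusted p under 0.05, and the median was -0.08. Without WT male replicate 1 alone, Gad1 had a change of -0.26, Gad2 of -0.11, Dlx5 of -0.45 and Sst of 0.13. How far tissue from the olfactory bulb takes part in these values was not tested.

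Excitatory neuron genes had a median log2 change of 0.02, with Camk2a, the calcium-dependent kinase of their synapses, at 0.19. Upper layer genes had a median of -0.11 that was 0.02 without HT female replicate 2. Of 17 deep layer genes 2 were higher (median -0.12, -0.07 without that library). Syt6, a synaptotagmin of layer 6 neurons, was at 220.5 to 1843 in HT libraries (median 1023), against 942 to 3374 in WT libraries (median 1542), Foxp2 had a log2 change of -0.41 (-0.21 without HT female replicate 2) and Sox5 -0.16, none of which passed (adjusted p = 0.15, 0.21 and 0.17 by limma). Striatal genes had a median of -0.04.

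Immediate early genes, which neurons switch on within minutes of activity, leaned lower in HT. None of the 42 passed, 31 were lower (median -0.15) and 8 of these had an unadjusted p under 0.05. Of all genes, 8.02% were lower at that threshold. Ier5, a transcriptional regulator, was at 672 to 1365 in HT libraries (median 1163), against 1265 to 1624 in WT libraries (median 1365), a log2 change of -0.32, and 8 of 10 HT libraries lay below every WT library. Egr1 was at 2115 to 5157 in HT libraries (median 4162), against 3495 to 8416 in WT libraries (median 4703), a log2 change of -0.37. The groups overlapped more for Egr1, where 3 HT libraries lay below the lowest WT library. Fos had -0.63, Egr2 -0.77, Klf10 -0.41 and Arc, which drives removal of AMPA receptors, -0.59. Without WT male replicate 1 Fos had -0.35 and Egr2 -0.50, and within males the change of Fos was -0.41 with that library and 0.15 without it. The summed level was 33776 to 43755 in HT libraries (median 37469), against 36158 to 53961 in WT libraries (median 40388), the highest in WT male replicate 1. Without that library the median was -0.09. Without it and HT female replicate 2 the median was -0.10 and 4 were lower at an unadjusted p under 0.05. The median was 0.05 under vehicle and -0.23 under lithium.

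Genes that glucocorticoid receptors induce were mostly higher in HT. 20 of 24 tested were higher (median 0.22), and 9 of them had an unadjusted p under 0.05, where 7.7% of all genes did, but none passed. Plin4, a lipid droplet protein, was at 32.7 to 305 in HT libraries (median 95.5), against 19.1 to 72.7 in WT libraries (median 48.4), a log2 change of 1.04 (SE 0.28, adjusted p = 0.086 by limma), and 8 of 10 HT libraries exceeded every WT library. Mt2, a metallothionein, was at 1491 to 3306 in HT libraries (median 1829), against 1028 to 1785 in WT libraries (median 1564), a log2 change of 0.43, with 0.35 for its neighbour Mt1. Arrdc2, an arrestin domain protein, was at 171 to 480.2 in HT libraries (median 314), against 162 to 334 in WT libraries (median 216), a log2 change of 0.47. For Mt2 7 and for Arrdc2 4 of 10 HT libraries exceeded the WT range. Fkbp5, a co-chaperone of the receptor, had 0.40, the transcription factor Zbtb16 0.32 and Mertk, an engulfment receptor, 0.35, while the receptor gene itself, Nr3c1, had -0.13 (-0.07 without HT female replicate 2). The list median was 0.25 in females (0.14 without HT female replicate 2), 0.13 in males (-0.00 without WT male replicate 1), -0.00 under vehicle and -0.02 under lithium. It was 0.17 without HT female replicate 2, and 0.05 with 5 genes at an unadjusted p under 0.05 when WT male replicate 1 was left out as well.

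The mRNAs encoded in mitochondrial DNA were higher in HT for 12 of 13 genes (median 0.15), 8 of them at an unadjusted p under 0.05. Of all genes, 7.7% were higher at that threshold. The list median was 0.24 in females and 0.07 in males, and it was 0.06 under vehicle and 0.14 under lithium. mt-Co2, a catalytic subunit of cytochrome c oxidase, was at 80268 to 117620.0 in HT libraries (median 104751), against 24745 to 107358 in WT libraries (median 53781), a log2 change of 0.89 (SE 0.23, adjusted p = 0.078 by limma). mt-Nd4l and mt-Nd5, subunits of complex I, had log2 changes of 0.49 and 0.15, and mt-Co3 was the member with a change below 0 (-0.35, unadjusted p = 0.37, between -0.58 and -0.18 over single omissions). The WT libraries were the more spread for mt-Co2, and nuclear copies of mitochondrial sequence can share reads with these genes. Of the nuclear-encoded subunits of oxidative phosphorylation 45 of 76 were higher, with a median of 0.01. Ribosomal protein genes were higher in 60 of 79 by small amounts (median 0.04), with 8 at an unadjusted p under 0.05, or 2 when libraries were rescaled to equal sums. In the values as deposited, 49.4% of all genes were higher, and 7.7% were higher at that threshold.

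Synaptic receptor genes had changes of both signs. Of 28 inhibitory synapse genes, GABA receptors included, 8 were higher and 20 lower in HT (median -0.04). Gabrb2, a beta subunit of GABA-A receptors, was at 3143 to 5841 in HT libraries (median 4574), against 5043 to 6077 in WT libraries (median 5448), a log2 change of -0.22. 7 of 10 HT libraries lay below every WT library for Gabrb2, while Shisa7, described above, was higher, and none of the 28 passed. Without HT female replicate 2, which had the lowest value of Gabrb2, 12 of the 28 were higher and the median was -0.02. Glutamate receptor and postsynaptic genes were higher in 27 of 55 (median -0.01). Cnih2, an AMPA receptor auxiliary protein, had 0.28, and the scaffolds Shank3 and Shank1 0.17 and 0.14.

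Among 98 autism risk genes other than Ank2, 75 were lower and 23 higher (median -0.05), and none passed. The list median had the other sign under vehicle (0.01, 54 of 98 higher) and under lithium (0.04, 64 of 98 higher). At an unadjusted p under 0.05, 18 were lower and 4 higher, against 8.02% and 7.7% of all genes. Nrxn3, a presynaptic adhesion molecule, was at 5566 to 8794 in HT libraries (median 7962), against 7947 to 10498 in WT libraries (median 8997), a log2 change of -0.25. For Nrxn3 5 of 10 HT libraries lay below every WT library. Without HT female replicate 2, again the lowest, the counts at that threshold were 17 and 4, and with each library's trend on transcript length and GC content removed they were 7 and 4. Cntnap2 and Fmr1 had log2 changes of -0.18 and -0.08.

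The serotonin list, closest to the action of fluoxetine, had no member that passed, and 9 of 17 tested were higher (median 0.04, -0.04 without HT female replicate 2). Htr1f, a Gi-coupled receptor, was at 49.9 to 139.6 in HT libraries (median 127), against 119 to 184 in WT libraries (median 147), a log2 change of -0.39. Its lowest value was in HT female replicate 2 (49.9), and 7 of 10 HT libraries lay within the WT range. Htr1a, the main inhibitory receptor, had 0.22, Htr2a, the main excitatory one, -0.18, Maob, an enzyme that breaks down monoamines, 0.13 and S100a10, which carries serotonin receptors to the membrane, -0.16. The changes without HT female replicate 2 were -0.26 for Htr1f, 0.06 for Htr2a and -0.10 for S100a10, and without WT male replicate 1 that of Htr1a was 0.11. Of genes downstream, Bdnf had a log2 change of -0.04, its receptor Ntrk2 0.07, Creb1 -0.13 and its coactivator Crtc1 0.13. Ntf3, a neurotrophin, was at 14.3 to 175 in HT libraries (median 23.6), against 8.17 to 22.8 in WT libraries (median 15.5). 5 of 10 HT libraries exceeded every WT library for Ntf3, and the highest was again HT female replicate 2, without which the log2 change was 0.47, beside 0.77 with it.

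The other lists had medians close to that of all genes. They were -0.02 for presynaptic release, -0.05 for sodium, -0.02 for potassium and -0.02 for calcium channels, -0.02 for adhesion and axon guidance and -0.01 for axonal transport. Cholesterol synthesis genes had 0.03, inositol metabolism -0.03, Wnt and GSK3 signalling -0.01, regulators of Ras, PI3K and mTOR -0.04, the circadian clock -0.07 and chaperones 0.01. Interferon and inflammation genes had -0.05, the perineuronal net -0.00, neurotrophins with CREB targets -0.01 and ependymal cells 0.05. Medians this small depended on single libraries. The median was -0.08 for ependymal cells and -0.03 for the clock without HT female replicate 2, and 0.00 for interferon and inflammation genes without WT male replicate 1. For sodium channels it ran from -0.08 to -0.01 over single omissions. Of all 43 lists, 18 had a median that changed sign without at least 1 single library, 11 of them without HT female replicate 2. Single members with a small p in these lists were Deptor, an inhibitor of mTOR (-0.40), Pikfyve, a phosphoinositide kinase of endosomes (-0.15), Tm7sf2, a sterol reductase (0.24), Kif2a, a microtubule-depolymerizing kinesin (-0.21), and Nr1d2, a clock repressor (-0.13), with adjusted p of 0.072, 0.072, 0.072, 0.11 and 0.11 by limma.

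Within females, 66 genes passed (0.39% of 16919), 32 higher (0.189%) and 34 lower (0.201%) in HT, 2932 genes (17.3%) had an unadjusted p under 0.05, and within males only Ank2 passed (0.00591%), with 1256 genes (7.42%) at an unadjusted p under 0.05. With the 19 fluoxetine libraries fitted alone, without the spread of the other libraries, 1 gene passed in females and 1781 had an unadjusted p under 0.05. mt-Co2 had 103261, 91444, 110583, 111482 and 106241 in HT females, against 67366, 24745, 33497, 41943 and 49315 in WT females, and rose by a log2 change of 1.35 (SE 0.32, adjusted p = 0.044 by limma). Grm8, a presynaptic metabotropic glutamate receptor, had 680.1, 204, 572, 426 and 693 in HT females, against 801, 954, 689.8, 733 and 729 in WT females (log2 change -0.72, SE 0.16, adjusted p = 0.037 by limma). The female genotypes did not overlap for mt-Co2, as for 329 of all genes (1.94%), and overlapped by a narrow margin for Grm8, whose lowest value was in HT female replicate 2 and whose change was -0.41 without that library. Slc16a11 had 328, 355, 317, 365 and 360.3 in HT females, against 228, 234, 278, 272 and 281 in WT females (log2 change 0.42, SE 0.08, adjusted p = 0.027 by limma). Nrxn3 had 8696, 5566, 7841, 6394 and 8083 in HT females, against 10041, 9456, 8997, 8544 and 10196 in WT females (log2 change -0.38, SE 0.09, adjusted p = 0.037 by limma). The female genotypes did not overlap for Slc16a11, and for Nrxn3 the highest HT female exceeded only the lowest WT female. Nrxn3 had a change of -0.29 without HT female replicate 2.

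Arrdc2 and Mt2, both of the glucocorticoid list, rose in HT females. Arrdc2 was at 281 to 480.2 in HT females, against 162 to 231 in WT females, a log2 change of 0.74, and Mt2 at 1491 to 3306 in HT females, against 1028 to 1704 in WT females, a log2 change of 0.61. Frem2, an extracellular matrix protein, rose too and was at 110.3 to 218 in HT females, against 61.9 to 112 in WT females, a log2 change of 0.97. The female genotypes did not overlap for Arrdc2. Phgdh, the first enzyme of serine synthesis, was at 1223 to 2295 in HT females, against 1104 to 1333 in WT females, a log2 change of 0.38 that was 0.24 without HT female replicate 2. Thpo, the hormone thrombopoietin, rose by a log2 change of 0.66, the protease Capn3 by 0.65, Inpp5b, an inositol phosphatase, by 0.43 and Crocc, which builds the rootlet of cilia, by 0.41. Gramd3 rose by 0.40 and Emx2os, which is antisense to Emx2, by 0.55. Other rises were also smaller without HT female replicate 2. They were then 0.62 for Arrdc2, 0.44 for Mt2, 0.84 for Frem2, 0.48 for Thpo, 0.57 for Capn3, 0.36 for Inpp5b, 0.31 for Gramd3 and 0.38 for Emx2os. In males these genes had log2 changes of 0.21 (Arrdc2), 0.24 (Mt2), 0.01 (Frem2), 0.07 (Phgdh), 0.29 (Thpo) and 0.11 (Capn3).

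Pfkp and Asns, enzymes of energy metabolism and of amino acid synthesis, fell in HT females. Pfkp, a phosphofructokinase of glycolysis, was at 8403 to 12649 in HT females, against 13020.3 to 15149 in WT females, a log2 change of -0.34, and Asns, asparagine synthetase, at 1778 to 2336 in HT females, against 2382 to 2769.9 in WT females, a log2 change of -0.29. The female genotypes did not overlap for Pfkp and Asns. Racgap1, a regulator of cell division, was at 199 to 427 in HT females, against 415 to 650.4 in WT females, a log2 change of -0.50 that was -0.30 without HT female replicate 2. Also lower were Sh3yl1 with a log2 change of -0.47, Mkln1 with -0.34, Cacybp with -0.32 (-0.16 without HT female replicate 1), Tmtc1 with -0.31 (-0.19 without HT female replicate 2), Tmem169 with -0.29 and the synapsin Syn3 with -0.41. Without HT female replicate 2 Pfkp had -0.24, Asns -0.23 and Tmem169 -0.21. In males Pfkp had -0.00, Asns -0.02 and Racgap1 -0.03. Adjusted p-values of these genes in females by limma were between 0.037 and 0.05.

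The female count depended on single libraries. Without HT female replicate 2 it was 1 gene, Ank2, without HT female replicate 4 it was 2, and without WT female replicates 2, 4, 5 or 1, left out singly, it was 4, 5, 10 and 20 in that order. Without HT female replicates 3, 5 or 1, left out singly, it was 139, 201 and 684. The 66 genes were chosen in these same libraries, and the median of their changes in the female direction was 0.28 without HT female replicate 2, beside 0.34 with it. In the averaged comparison the count of 2 became 1 without HT female replicate 4, HT male replicate 4, WT female replicate 1, WT female replicate 4 or WT male replicate 1. It became 4 without WT male replicate 3, 5 without HT male replicate 1 or HT male replicate 2, 9 without WT female replicate 5, 15 without WT male replicate 4, 24 without WT male replicate 2, 30 without HT female replicate 5 and 132 without HT female replicate 1.

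**Figure D5:**
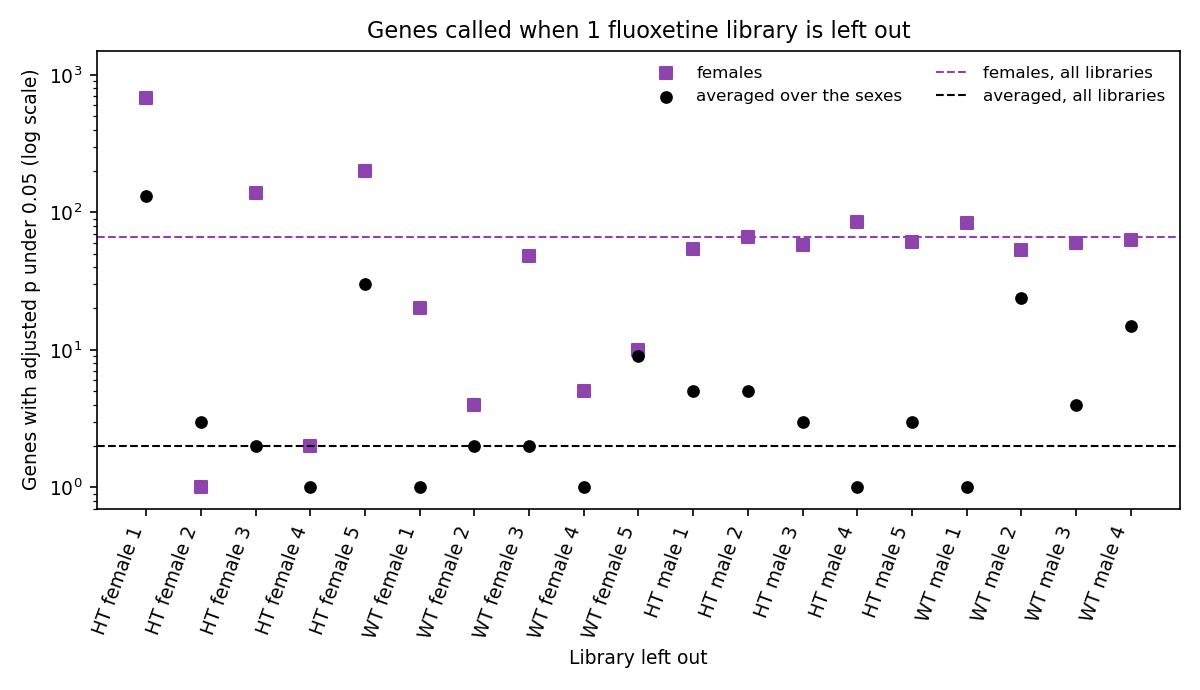
Number of genes with an adjusted p under 0.05 (log scale) when the library on the horizontal axis is left out, for HT against WT in females (squares) and averaged over the sexes (circles). Dashed lines give the counts with all libraries, 66 and 2. The female count runs from 1 without HT female replicate 2 to 684 without HT female replicate 1.

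Some lists differed between the sexes in the direction or only in the size of their median, without a test of that difference. All 10 olfactory bulb genes were lower in HT in both sexes (median -1.40 in females and -0.94 in males, -0.37 without WT male replicate 1). Fibroblast and meningeal genes were lower in HT in 7 of 15 in females (median 0.00) and in 15 of 15 in males (-0.22), where 49% of all genes were higher in HT females and 50.9% in HT males. Deep layer genes were lower in 16 of 17 in females (median -0.34, -0.20 without HT female replicate 2), and in 6 of 17 in males (median 0.03). One of them, Sox5, a transcription factor of deep layer neurons, fell in HT females (log2 change -0.36, adjusted p = 0.037 by limma). Presynaptic genes were lower in 41 of 55 in females (median -0.09, -0.03 without HT female replicate 2), where Nrxn3, Syt5 and Syn3 passed, and in 13 of 55 in males (median 0.05, 0.00 without WT male replicate 1). Astrocyte genes had medians of 0.18 in females and 0.00 in males.

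Whether the sexes differed was tested directly, and no gene passed by limma (0 of 16919, 0%), with 1507 at an unadjusted p under 0.05 (8.91%). Of the 66 genes called in females, 46 had the same sign in males, 2 of these with an unadjusted p under 0.05 there, and the median male change in the female direction was 0.032. 52 of the 66 had an unadjusted p under 0.05 in the test of the difference, a test that shares the female libraries that chose them. The genes with the smallest p for the difference were Zfp950, a zinc finger gene (0.32 in females, -0.14 in males), and Trim56, a ubiquitin ligase of antiviral signalling (0.42 and -0.51), both with an adjusted p of 0.077 by limma. Syt5, a calcium sensor of secretory vesicles, had -0.32 in females and 0.21 in males, Atp6v1c1, a subunit of the vacuolar proton pump, -0.42 and 0.09, and Wwtr1, a coactivator of the Hippo pathway, 0.14 and -0.28. Across the 16919 genes, which are not independent, the female and male changes had a Pearson's r of 0.18 and a Spearman rank correlation of 0.14, and 55.1% had the same sign.

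Set against the same genotype comparison under vehicle, the effect differed in no gene by limma (0%), with 1291 genes (7.63%) at an unadjusted p under 0.05. Those with the smallest p, all with an adjusted p of 0.26 by limma, were Pnpla7 (log2 change 0.44 under fluoxetine and -0.17 under vehicle), Tgif2, a repressor of TGF-beta signalling (-0.57 and 0.22), Nf1, a negative regulator of Ras (-0.10 and 0.14), Ddx6 (-0.14 and 0.05) and Cd93, an endothelial receptor (-0.29 and 0.20). Tgif2 was at 17.2 to 51.9 in HT libraries (median 26.4), against 32.1 to 48.0 in WT libraries (median 40.7) under fluoxetine, and 9 of 10 HT libraries lay below every WT library while HT female replicate 2 lay above them all. Across genes, which are not independent, the averaged changes under fluoxetine and under vehicle had a Pearson's r of 0.16 and a Spearman rank correlation of 0.14, with 54.6% of the same sign and no library in common.

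Set against lithium, the genotype effect differed in 4 genes (0.0236%), all relatively higher under fluoxetine, with 2339 at an unadjusted p under 0.05 (13.8%). Rps18 and Rps14, proteins of the small ribosomal subunit, had log2 changes of 0.09 and 0.10 under fluoxetine, against -0.25 and -0.24 under lithium. Elob, which is part of the elongin complex, had 0.07 and -0.17, and Wbp1l 0.16 and -0.08, in the same order. The differences were 0.33 (SE 0.06, adjusted p = 0.024), 0.34 (SE 0.07, adjusted p = 0.048), 0.24 (SE 0.05, adjusted p = 0.048) and 0.24 (SE 0.05, adjusted p = 0.048) by limma. In none of the 4 did the change under fluoxetine itself pass, ribosomal protein genes have pseudogene copies that can share reads, and the count ran from 0 to 73 over single omissions of fluoxetine libraries. Across genes the averaged changes under fluoxetine and under lithium had a Pearson's r of 0.29 and a Spearman rank correlation of 0.12, with 52.4% of the same sign. The count was 0 without HT female replicate 4, HT female replicate 5, HT male replicate 4, WT female replicate 1, WT male replicate 1 or WT male replicate 4, and 73 without HT female replicate 1. The ribosomal protein list as a whole had medians of 0.04 under fluoxetine, 0.00 under vehicle and -0.13 under lithium.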

How the data were processed

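Poly(A) RNA of prefrontal cortex was sequenced from 59 libraries with a stranded mRNA kit, per the labels' protocols. The deposited values form a signal table: per gene, an estimated count after the authors' division by a factor of the library. Salmon 0.11.2, R 3.6.0, DESeq2 1.19.11 and the build GRCm38 are named in the submitters' processing notes, without settings. Whole reads could not be recovered, because 32.0% to 76.4% of low values per library were whole multiples of 1 step (tolerance 0.1 of a step), so no count test was run. Of 51456 identifiers, 51285 matched GENCODE M21, and the others held 0.0033% of the summed values. No pair of the 59 libraries shared an identical value above 10.

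Values were tested as log2(value + 1) with limma 3.58.1 in R 4.3.3 (intensity trend, robust estimation) in the 16919 genes whose mean across all 59 libraries reached 10. The model held 12 means (genotype, drug and sex), which share 1 estimate of spread with 47 residual degrees of freedom. The contrast was HT minus WT, averaged over the sexes, and tests were two-sided with Benjamini-Hochberg adjustment over all genes. Fold changes of low genes are understated by the added 1. The procedure was tested on simulated data. Exact permutation and tables used Python 3.11.15 with NumPy 2.4.6, pandas 2.3.3 and SciPy 1.17.1, and plots matplotlib 3.10.9.

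The comparison and its 43 gene lists were chosen with earlier results of these data known. Named genes were the called ones, the 10 per direction with the smallest p, means of 50 or more and 1 sign in females and males, up to 3 members per list, up to 12 per direction in females and 5 per difference. The extension of this rule to females and to lithium, and other list members named for their known role, followed after values were seen. Alternatives covered the pseudocount, the filter, scaling, libraries in the fit, empirical Bayes settings, library weights, a replicate block, the length and GC trend, and omitted libraries. A few genes are not reported here.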

Additional observations from a re-analysis of the deposited data

Results flagged for a closer look

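Of 112 groups of 4 or 5 libraries examined for a library far from the rest by Dixon's criterion, 14 had one. For a single group of normal values chance gives about 1 in 20. These groups share libraries, and some are of genes named for a small p in them, so the count was not tested against chance. HT female replicate 2 was far from the other HT females in the summed normalized values of myelin genes (531175), choroid plexus genes (121590.0) and dentate gyrus genes (19274), and in Josd2 (1583) and Thbs2 (207). WT male replicate 1 was far from the other WT males in the sums of immediate early genes (53961) and dentate gyrus genes (11508) and in Shisa7 (5693). HT male replicate 4 was far from the other HT males in Slc16a11 (381) and Ddx6 (5441), and HT male replicate 5 in the sum of inhibitory neuron genes (58906). WT female replicate 5 was far from the other WT females in Nkain1 (525) and in the sum of inhibitory neuron genes (49484), and WT female replicate 1 in the sum of myelin genes (212967).

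The genotype effect differed between fluoxetine and lithium in 4 genes by the test of the difference itself (limma, adjusted p under 0.05). The log2 change of HT against WT was larger under fluoxetine than under lithium by 0.33 in Rps18, 0.34 in Rps14, 0.24 in Wbp1l and 0.24 in Elob.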

How the results depend on the processing

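None of the 56 tested changes of single named genes followed through the alternatives changed sign. These 56 had been named for a call or a small p. Other named genes did change sign, such as Htr2a without HT female replicate 2 and Fos within males without WT male replicate 1. Ank2 kept its call throughout, with a log2 change of -0.61 to -0.56 when single libraries were left out. List medians were less stable: 20 of 43 changed sign under at least 1 alternative, 11 of them without HT female replicate 2, among them choroid plexus (-0.06, beside 0.50 with all libraries), dentate gyrus (-0.04, beside 0.33), upper layers (0.02, beside -0.11), serotonin signalling (-0.04, beside 0.04) and ependymal cells (-0.08, beside 0.05). Counts moved too. Averaged over the sexes, 2 genes were called, against 5 with the 19 fluoxetine libraries fitted alone, 4 with library weights, 4 with the length and GC trend removed, and 1 to 132 without single libraries. In females 66 became 9 with no filter, 1 with the 19 libraries alone, 37 without the trend and 1 to 684 without single libraries. In males 1 became 2 with no filter, a mean of at least 50, no robust estimation or no trend, 3 with library weights and 1 to 2 without single libraries. The count for the difference between the sexes was 0 to 3 without single libraries, that for fluoxetine against vehicle 1 with library weights and 0 without any single library. That for fluoxetine against lithium, 4 as reported, was 1 with no filter, 21 with a mean of at least 50, 1 without the trend, 182 with library weights, 1 with the length and GC trend removed and 0 to 73 without single libraries. Called list members, 1 as reported, were 2 with upper quartile scaling, 2 with the length and GC trend removed and 1 to 16 without single libraries. Without HT female replicates 2 and 4, females had 1 call and the lithium difference 0. Without HT female replicate 2 and WT male replicate 1, a pair chosen after seeing the data, the averaged comparison had 1 call, females 1 and the lithium difference 1. The cause of these shifts was not tested. A fit with fewer libraries also has fewer degrees of freedom, and the part of this in the shifts was not tested either. Of 3356 further pairs of a gene or list and a setting, 2902 kept their side of the threshold, 78 passed it and 376 lost it.

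Replicate numbers did not pair the libraries: same-numbered HT and WT libraries had correlations of -0.21 to 0.19, with 2 of 9 above 0.1, and 2 of 9 HT libraries correlated best with their own number. With a replicate block, 3 genes were called averaged over the sexes, 54 in females, 2 in males and 4 in the lithium difference, and with the block and the length and GC trend removed 3, 44, 3 and 2.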

Other observations

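Libraries differed in how their values varied with transcript length. The slope of the log2 deviation on the log2 of transcript length, in 10789 genes whose mean reached 250, was -0.015 to 0.068 in HT libraries (median 0.035), against 0.026 to 0.10 in WT libraries (median 0.051). The groups overlapped, and the difference had an exact permutation p of 0.062 (two-sided, 10 against 9 libraries). Its part in the lists of long genes, such as the autism risk list, was not tested beyond the fit with that trend removed.

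Without HT female replicate 2, Tgif2, a repressor of TGF-beta signalling, was called in the averaged comparison beside Ank2 and Ssh3. This gene was noticed after its values were seen.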
